A study of Mus musculus with 8 samples.

Results

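The TCA cycle and itaconate genes described here are Acod1, Cs, Idh1, Idh2, Idh3a, Ogdh, Fh1, Mdh1 and Mdh2, 9 of the 53247 genes measured by mRNA sequencing in tumor-associated macrophages (TAMs). They were chosen by gene symbol as enzymes of the cycle and of its itaconate branch, and each symbol was found in 1 row. The TAMs came from subcutaneous Lewis lung carcinoma (LLC) tumors, a syngeneic mouse lung cancer model. LLC cells were placed in C57BL/6 mice at 8 weeks of age, and the tumors were taken after 14 days, at 10 weeks of age. CD45+, CD11b+, MHCII+, F4/80+ cells were sorted from tumors of WT and miR-21-/- mice, giving 4 libraries per genotype. The miR-21-/- allele is a whole-body deletion (Mir21atm1Yoli), so every host cell lacks miR-21, whereas the implanted LLC cells were the same in both groups. For miR-21-/- replicate 1, the sample title carries 2 numbers joined by a hyphen, and whether it is a pool is not given. The comparison asks which steps of the cycle differ in transcript level between WT and miR-21-/- TAMs.

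The TCA cycle oxidizes acetyl-CoA in the mitochondrion. Citrate synthase forms citrate, which passes by way of cis-aconitate to isocitrate, and the later steps pass through α-ketoglutarate, succinate, fumarate and malate back to oxaloacetate. In macrophages activated by interferons and Toll-like receptor ligands, the cycle is known to be interrupted at isocitrate dehydrogenase and at succinate dehydrogenase. Acod1 (also called Irg1) then draws cis-aconitate away to itaconate, a metabolite that inhibits succinate dehydrogenase and modifies KEAP1.

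Depth and identity of the libraries were examined first. The smallest step between low values put the depth at 20.2 to 33.4 x 1e6 reads, and the 9 genes had between 753 and 11527 reads in each library. Mir21a itself, the deleted locus, was listed at the floor of 0.0001 CPM in all 8 libraries, so it does not check the genotype labels. CPM stands here for the deposited normalized values, treated as read counts scaled to library size. The macrophage markers summed to 8621 to 10504 CPM in WT and 9577 to 12601 CPM in miR-21-/- TAMs, and all 8 of them were above 1 CPM in at least 1 library. Markers of other cells summed to less, and none of them was at the floor in every library. Neutrophil markers summed to 823 to 1238 CPM in WT and 608 to 789 CPM in miR-21-/- TAMs. Of these, 1 of 8, Mmp8, passed the threshold as lower, beside 4.27% of all tested genes. Apart from Mmp8 and Csf3r (log2 fold change -0.39), the genes of this list overlapped between the groups. Ly6g went the other way (0.31, not past the threshold), and the rest had log2 fold changes below 0. Fibroblast markers summed to 60.3 to 136 CPM in WT and 9.89 to 44.0 CPM in miR-21-/- TAMs. Past the threshold as lower were 3 of 5, beside the same 4.27% of all tested genes. In the miR-21-/- group, B cell markers (3.60 to 10.00 against 10.8 to 16.8 CPM), mast cell and basophil markers (0.346 to 1.05 against 1.23 to 1.73 CPM) and tumor epithelial cell markers (12.7 to 17.9 against 18.8 to 24.8 CPM) were also at lower sums, without overlap. The ranges overlapped for dendritic cell (11.2 to 19.9 and 15.2 to 38.4 CPM), T and NK cell (16.3 to 37.7 and 7.26 to 34.1 CPM) and endothelial cell markers (151 to 300 and 198 to 286 CPM), WT first. Within the T and NK cell list, Cd4 passed the threshold as lower (log2 fold change -2.35). Cd8a was higher without overlap (1.28, not past the threshold), so the overlapping sum holds opposite differences. Cd3e (0.26), Cd3d (0.0019), Cd3g (0.29) and Nkg7 (0.91) overlapped between the groups, and none of these passed. In WT TAMs, Cd4 was at 5.93 to 30.0 CPM and Cd3e at 1.95 to 2.60 CPM. Which cells the Cd4 reads came from was not tested. Cd79b of the B cell list was also past the threshold as lower (-1.45) and Fcgr1 of the macrophage list as higher (0.75). Lyz2 alone was at 3367 to 7295 CPM of the macrophage sum. Adgre1, which encodes the sort marker F4/80, was lower without overlap (-0.38, adjusted p = 0.00137 by limma, under the fold limit), as was Csf1r (-0.48, adjusted p = 0.00525). In the dendritic cell list, Clec9a was higher without overlap (1.26) and Cd209a was at -1.28 with overlap, neither past the threshold. The part of these other cells in the results was not tested. In bulk samples, fewer cells of a type and less RNA per cell cannot be told apart.

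The sequence that distinguishes the genotypes is shown first, with its seed (bases 2 to 8, the stretch that pairs with targets) in capitals. It is the mature strand of miR-21 in RefSeq (GRCm38.p6), at chr11:86584120-86584141 on the minus strand.
mmu-miR-21a-5p: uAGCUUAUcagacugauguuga
The 3′ UTRs of the 9 genes (GENCODE vM21, GRCm38) were searched for the matching ATAAGCTA and for its 7-base forms ATAAGCT and TAAGCTA. Mdh1 was the only one of the 9 with a match, a single 7-base form at positions 538 to 544 of a 656-base 3′ UTR, shown with the match in capitals.
Mdh1 3′ UTR: aatatttgTAAGCTAagattatt
None of the 11 other TCA enzymes held a match either. A 7- or 8-base match was present in 12.5% of the 11215 tested genes for which a 3′ UTR is annotated. A match is a description of the letters and not a measured site.

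Promoter windows from RefSeq (GRCm38.p6), 250 bases before to 50 after the start site, were found for 8 of the 9 genes and not for Idh3a. The windows of the 2 genes whose transcript level passed the threshold below are printed, 5′ to 3′ on the gene's strand, with matches to the TATA box (TATAAA) and the CCAAT box (CCAAT, or ATTGG on the other strand) in capitals. The Acod1 window is chr14:103046762-103047061 on the plus strand, and the Idh2 window is chr7:80115301-80115600 on the minus strand.
Acod1 promoter: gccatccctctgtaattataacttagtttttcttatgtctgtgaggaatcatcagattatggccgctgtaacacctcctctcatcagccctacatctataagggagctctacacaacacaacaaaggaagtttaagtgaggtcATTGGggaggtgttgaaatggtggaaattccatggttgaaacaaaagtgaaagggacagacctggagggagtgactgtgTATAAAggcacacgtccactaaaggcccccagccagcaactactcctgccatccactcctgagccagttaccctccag
Idh2 promoter: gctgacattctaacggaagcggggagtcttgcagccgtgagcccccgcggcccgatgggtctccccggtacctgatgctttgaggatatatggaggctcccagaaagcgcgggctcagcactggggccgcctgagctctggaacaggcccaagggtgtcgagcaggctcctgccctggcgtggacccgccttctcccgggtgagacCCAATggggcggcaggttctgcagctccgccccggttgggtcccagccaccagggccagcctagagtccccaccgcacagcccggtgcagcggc
The Acod1 window had a TATA match at positions -28 to -23 from the start site and a CCAAT match at -107 to -103. The Idh2 window had a CCAAT match at -44 to -40 and no TATA match. They also differed in base composition: GC content was 47.0% with 2 CpG sites for Acod1, and 68.3% with 20 CpG sites for Idh2, beside medians of 52.7% and 7 over 32851 promoters. TATAAA was in 13.6% of those promoters and in 1 of the 8 genes, Acod1. CCAAT was in 37.4% of them and in 7 of the 8 genes, all but Mdh2. The shares of promoters count single windows, whereas a gene was counted if any of its windows matched. The 8 genes had 14 windows, so the 2 measures are not alike. Both strands were searched for 6 further motifs. The interferon-stimulated response element core (in 3.44% of all promoters), the interferon-γ-activated site (TTCNNNGAA, 8.30%), the kappaB element (1.63%), AP-1 (TGANTCA, 7.81%) and NRF1 (0.971%) had no match in these windows. The antioxidant response element (TGACNNNGC, 12.4%, which can overlap AP-1) had a match in Mdh1. No match says only that these letters are not in the window. Looser forms of these motifs were not searched.

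Acod1, which makes itaconate, was higher in miR-21-/- TAMs than in WT TAMs, whereas Idh2, the mitochondrial isocitrate dehydrogenase that uses NADP+, was lower. The other 7 genes did not pass the threshold, which was an adjusted p of at most 0.005 with a fold change over 1.5 (limma on log2(CPM + 1), Benjamini-Hochberg adjustment over 13363 genes). The 2 of 9 genes past the threshold stand beside 7.24% of all tested genes. At the adjusted p alone, 3 of 9 passed (Fh1 in addition), beside 14.8% of all tested genes. The 4 WT and 4 miR-21-/- values did not overlap for 4 of 9 genes (Acod1, Idh2, Fh1 and Mdh1), beside 35.7% of all tested genes. The median log2 fold change was -0.06 for the 9 genes and -0.10 for all tested genes, of which 397 were past the threshold as higher and 570 as lower. Rescaling by the median of ratios moved that overall median up by 0.10 and turned the split to 513 higher and 339 lower. Log2 fold changes are printed without this shift unless said otherwise.

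**Figure D1:**
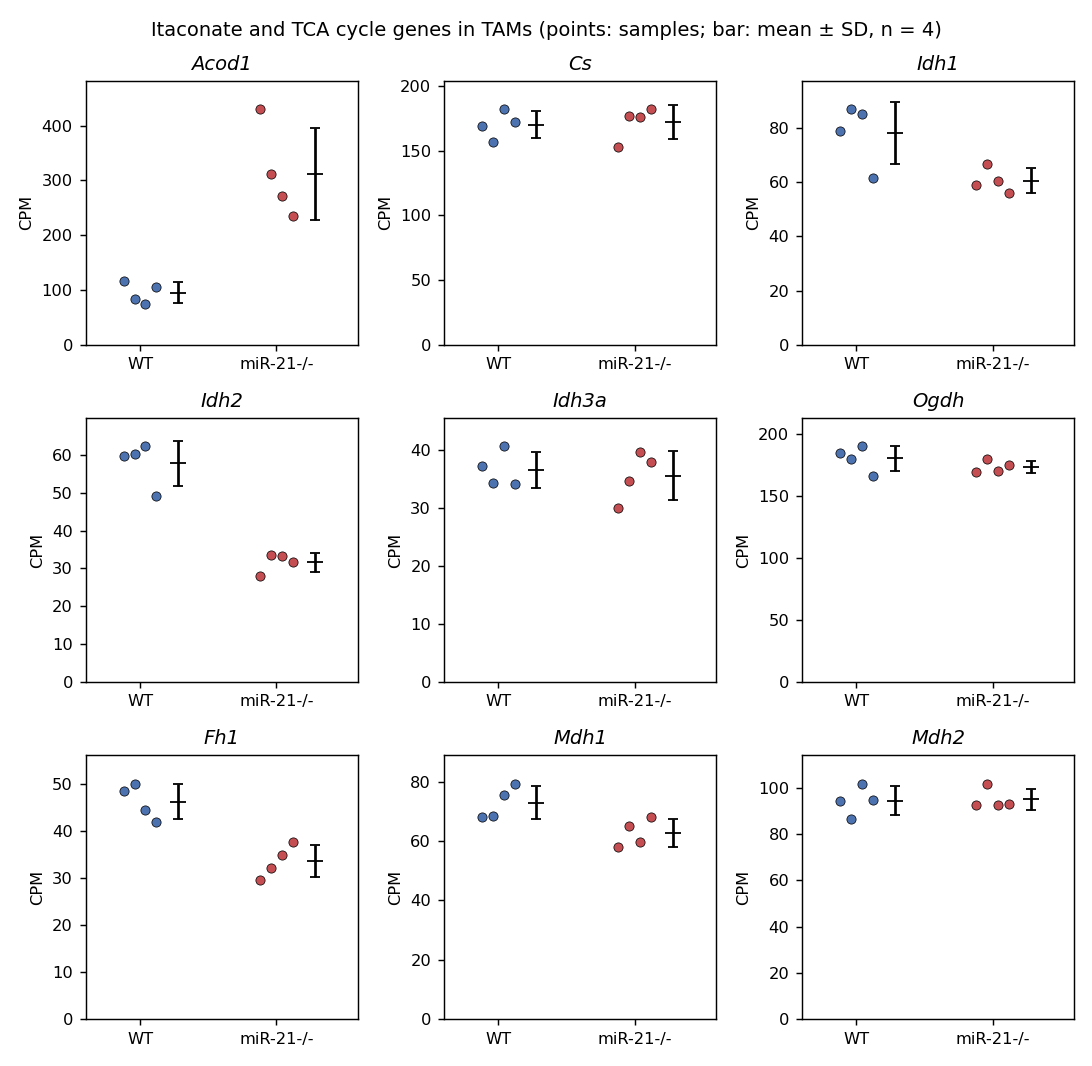
Level of each of the 9 genes in CPM (vertical axis, from 0) in WT (blue) and miR-21-/- TAMs (red). Points are samples in order of replicate number and bars are the mean ± SD (n = 4). Acod1 is at 74.8 to 117 CPM in WT and 235 to 430 CPM in miR-21-/- TAMs, and Idh2 at 49.1 to 62.3 and 28.1 to 33.5 CPM.

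Acod1 (GRCm38 chr14:103046977-103056573, plus strand) was at 117, 82.6, 74.8 and 105 CPM in WT replicates 1 to 4. In miR-21-/- replicates 1 to 4 it was at 430, 311, 272 and 235 CPM. The lowest miR-21-/- value was above the highest WT value, and the miR-21-/- values were the more spread (mean 312 ± 84.5 against 94.7 ± 19.4 CPM, SD, n = 4 each). The difference was 3.24-fold (95% interval 2.43 to 4.32), a log2 fold change of 1.70 (SE 0.19, adjusted p = 1.85e-04 by limma). This placed Acod1 at percentile 99.6 of the log2 fold changes of all tested genes.

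The condensing step did not separate the groups. Cs, citrate synthase, was at 169, 157, 182 and 172 CPM in WT TAMs and at 153, 177, 176 and 182 CPM in miR-21-/- TAMs, and the groups overlapped. Its log2 fold change was 0.01 (95% interval -0.14 to 0.17, adjusted p = 0.892 by limma).

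Among the isocitrate dehydrogenases, only Idh2 passed the threshold. Idh2 was at 59.7, 60.4, 62.3 and 49.1 CPM in WT TAMs and at 28.1, 33.5, 33.3 and 31.8 CPM in miR-21-/- TAMs. Every miR-21-/- value was below every WT value, and the fold was 0.556 (95% interval 0.487 to 0.635), a log2 fold change of -0.85 (SE 0.086, adjusted p = 1.11e-04 by limma). Idh2 lies at chr7:80094846-80115392 on the minus strand. The gene overlaps Gm45203 on the same strand, which was at 0.401 CPM or less in every library. Idh1, the cytosolic and peroxisomal counterpart, was at 79.0, 87.0, 85.3 and 61.7 CPM in WT and at 59.1, 66.9, 60.5 and 56.0 CPM in miR-21-/- TAMs. WT replicate 4 lay within the miR-21-/- range, and the log2 fold change of -0.35 (95% interval -0.59 to -0.12) had an adjusted p of 0.0249 by limma, above the limit. By the median of ratios it was -0.24 (adjusted p = 0.0862 by limma). Without WT replicate 4 it was -0.46 (adjusted p = 0.00123 by limma), still under the fold limit. Idh3a, the catalytic α subunit of the NAD+-dependent enzyme, was at 37.2, 34.3, 40.6 and 34.1 CPM in WT and 30.0, 34.7, 39.7 and 37.9 CPM in miR-21-/- TAMs. These ranges overlapped widely (log2 fold change -0.04, 95% interval -0.25 to 0.16, adjusted p = 0.747 by limma).

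Ogdh, the first subunit of the α-ketoglutarate dehydrogenase complex, was at 185, 180, 190 and 166 CPM in WT TAMs and at 169, 180, 170 and 175 CPM in miR-21-/- TAMs. The groups overlapped (log2 fold change -0.06, 95% interval -0.18 to 0.067, adjusted p = 0.460 by limma).

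Fh1, fumarase, was at 48.5, 50.1, 44.5 and 42.0 CPM in WT TAMs and at 29.6, 32.2, 34.9 and 37.6 CPM in miR-21-/- TAMs. The groups did not overlap, and the fold was 0.730 (95% interval 0.641 to 0.831), a log2 fold change of -0.45 (SE 0.084, adjusted p = 0.00265 by limma). It was within the limit on the adjusted p and short of the limit on the fold. In 11 of 17 alternative fits the adjusted p was above that limit (0.00889 by the median of ratios, 0.0103 with no filter on low values, limma), so the count of 3 of 9 at the adjusted p alone rests on the fit chosen. Fh1 (chr1:175600374-175625635, minus strand) overlaps Kmo, kynurenine 3-monooxygenase, on the other strand. Kmo, which was looked at because of the overlap, was at 9.48 to 19.4 CPM in WT and 3.90 to 6.53 CPM in miR-21-/- TAMs. Whether the counting used strand is not given in the sources used here, so reads of the overlapping stretch cannot be told apart.

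The malate dehydrogenases close the cycle. Mdh1, the cytosolic enzyme of the malate-aspartate shuttle and the one with the 7-base match above, was at 68.3, 68.7, 75.7 and 79.5 CPM in WT and at 58.2, 65.3, 59.7 and 68.1 CPM in miR-21-/- TAMs. The groups were separated by only a narrow gap, with the miR-21-/- values below, and the log2 fold change of -0.21 (95% interval -0.37 to -0.057) had an adjusted p of 0.0382 by limma. Relative to the median of all genes it was -0.11. Mdh2, the mitochondrial enzyme, was at 94.4, 86.8, 102 and 95.0 CPM in WT and 92.8, 102, 92.7 and 93.2 CPM in miR-21-/- TAMs, a log2 fold change of 0.01 (95% interval -0.12 to 0.14, adjusted p = 0.909 by limma). Its groups overlapped.

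To set levels of different genes beside each other, they were expressed per kilobase of annotated exon. In WT TAMs the mean levels ran from Acod1 (36.1 CPM per kb) through Ogdh (33.0), Cs (29.4), Mdh1 (28.5), Idh1 (28.2), Mdh2 (26.6), Idh2 (22.4) and Fh1 (13.6) to Idh3a (7.21 CPM per kb). From Acod1 down to Mdh2, the sample values of each gene overlapped those of the next. Idh2 (19.0 to 24.1 CPM per kb) was below Mdh2 (24.4 to 28.7 CPM per kb) in each pair of libraries. Fh1 (12.4 to 14.8 CPM per kb) and Idh3a (6.71 to 8.01 CPM per kb) were likewise below their neighbours. In miR-21-/- TAMs, Acod1 was at 119 CPM per kb (89.6 to 164), above the other 8, whose highest mean was Ogdh at 31.8 CPM per kb. Idh2 fell to 12.2 CPM per kb and Fh1 was at 9.90 CPM per kb. The order depended on the length used: per kilobase of the longest coding transcript, WT levels were highest for Mdh2 (65.0) and Cs (58.1), with Acod1 at 36.1 CPM per kb, while Acod1 stayed the highest of the 9 in miR-21-/- TAMs.

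Ratios of gene pairs within a library depend little on how that library was scaled. They were taken from CPM + 1 (the Idh1 to Idh2 difference below, 0.49, was 0.50 after rescaling by the median of ratios and 0.39 with a pseudocount of 10), without correction for gene length, so only their difference between genotypes is read, not which gene of a pair is higher. Per kilobase of exon, Acod1 was above Cs in 3 of 4 WT libraries and in 4 of 4 miR-21-/- libraries. Per kilobase of the longest coding transcript, the WT mean was 36.1 CPM per kb for Acod1 and 58.1 for Cs. The order of this pair in WT TAMs thus depended on the length used. Acod1 to Cs sets the itaconate branch against the entry of the cycle. Its log2 ratio was -0.54, -0.92, -1.27 and -0.70 in WT and 1.49, 0.82, 0.63 and 0.37 in miR-21-/- TAMs. The ratio was higher in each miR-21-/- library than in each WT library (difference 1.68, exact permutation test p = 0.0286, two-sided, adjusted p = 0.0476 over the 5 ratios computed, of which 4 are given). This p is the smallest that 4 against 4 samples allow. The log2 ratio of Idh1 to Idh2, the cytosolic to the mitochondrial NADP+ enzyme, was 0.40, 0.52, 0.45 and 0.32 in WT and 1.05, 0.98, 0.85 and 0.80 in miR-21-/- TAMs. These did not overlap either (difference 0.49, exact permutation p = 0.0286, adjusted p = 0.0476), and the ratio was 1.41 times as large in miR-21-/- as in WT TAMs. Mdh1 to Mdh2 was lower by 0.22 on the log2 scale with overlapping values (exact permutation p = 0.0571, adjusted p = 0.0714). Idh3a to Ogdh differed by 0.01 (exact permutation p = 0.857, adjusted p = 0.857).

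**Figure D2:**
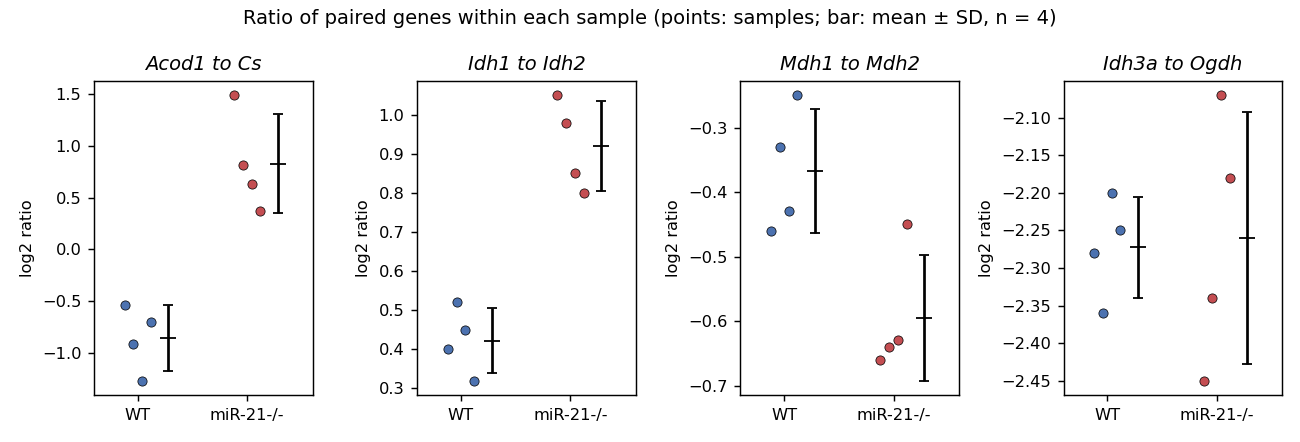
Log2 ratio of the CPM of paired genes within each library (vertical axes, each with its own range) in WT (blue) and miR-21-/- TAMs (red). Points are samples and bars the mean ± SD (n = 4). The groups do not overlap for Acod1 to Cs (difference 1.68) and Idh1 to Idh2 (0.49), and overlap for the other pairs.

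The miR-21-/- libraries also differed among themselves. Replicate 1 had the lowest miR-21-/- level for 6 of the 9 genes and for 17 of 20 genes when the other TCA enzymes are added, and the highest for 1, Acod1. Replicates 2, 3 and 4 had the lowest level for 0, 1 and 2 of the 20 genes. The genes whose level followed Acod1 most closely within genotypes (Pearson r of deviations from the genotype means over 8 libraries, a description) were Gm37194 (r = 0.980), Cmpk2 (0.975), Gm17907 (0.969), Gm26770 (0.966) and Gm20257 (0.957). Cmpk2 encodes a mitochondrial nucleotide kinase induced by interferon. It was at 15.4 to 30.4 CPM in WT and 19.3 to 36.3 CPM in miR-21-/- TAMs, with a log2 fold change of 0.12 (adjusted p = 0.724 by limma). Gm37194 had a log2 fold change of -1.02 (adjusted p = 0.0222 by limma). Gm17907, Gm26770 and Gm20257 were near the filter of 1 CPM, at 1.83 CPM or less in every library. None of the 5 passed the threshold. They are the top 5 of 13363 genes, and the measure concerns only variation among libraries of one genotype.

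Of the 11 other TCA enzymes, none passed the threshold, and 3 were within the limit on the adjusted p alone, each lower in miR-21-/- TAMs, beside 7.24% and, for the adjusted p alone as lower, 9.99% of all tested genes (median log2 fold change of the 11, -0.16). Suclg2, the GTP-forming β subunit of succinyl-CoA synthetase, was at 19.8, 19.7, 22.0 and 21.4 CPM in WT and 11.5, 13.9, 15.0 and 14.5 CPM in miR-21-/- TAMs. This non-overlapping difference was -0.57 on the log2 scale (adjusted p = 0.00101 by limma), just under the fold limit, and it passed the threshold in 5 of 17 alternative fits. At an unadjusted p under 0.05 (limma), 6 of the 11 enzymes passed, beside 47.1% of all tested genes. Its ATP-forming partner Sucla2 was at 32.2 to 34.3 and 30.3 to 33.1 CPM (log2 fold change -0.06), and the shared α subunit Suclg1 at 26.7 to 29.0 and 25.9 to 29.4 CPM (-0.03). Idh3g, a regulatory subunit of the NAD+-dependent isocitrate dehydrogenase, was at 51.2, 59.3, 55.5 and 59.6 CPM in WT and 37.5, 41.1, 39.9 and 43.2 CPM in miR-21-/- TAMs. It had a log2 fold change of -0.47 (adjusted p = 6.83e-04 by limma), beside -0.16 for Idh3b, the other regulatory subunit (adjusted p = 0.0518), and -0.04 for the catalytic Idh3a. The difference between these subunits was not tested. Idh3b overlaps Nop56 on the other strand, which was at 82.4 to 94.6 CPM in WT and 63.7 to 80.7 CPM in miR-21-/- TAMs. Reads of that overlapping stretch cannot be told apart here either. Dlst, the second subunit of the α-ketoglutarate dehydrogenase complex, was at 143 to 154 CPM in WT and 119 to 129 CPM in miR-21-/- TAMs (log2 fold change -0.25, adjusted p = 0.00346 by limma). Dlst was above the adjusted p limit in 11 of 17 alternative fits (0.0343 by the median of ratios), whereas Suclg2 and Idh3g were within it in all 17. Dld, the third subunit, had a log2 fold change of 0.03.

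Succinate dehydrogenase, the enzyme that itaconate inhibits, did not reach the limits in any subunit. Sdha, which holds the flavin and the catalytic site, was at 153, 153, 164 and 152 CPM in WT and 123, 139, 133 and 144 CPM in miR-21-/- TAMs. Its values did not overlap (log2 fold change -0.20, adjusted p = 0.0217 by limma). The iron-sulfur subunit Sdhb (0.01, adjusted p = 0.835) and the membrane anchor Sdhd (-0.03, adjusted p = 0.716) overlapped between the groups, as did the anchor Sdhc (-0.21, adjusted p = 0.0300). Of 4 assembly factors none passed the threshold and 1 had an unadjusted limma p under 0.05 (7.24% and 47.1% of all tested genes), from Sdhaf1 at -0.53 (adjusted p = 0.00610) to Sdhaf3 at 0.01.

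**Figure D3:**
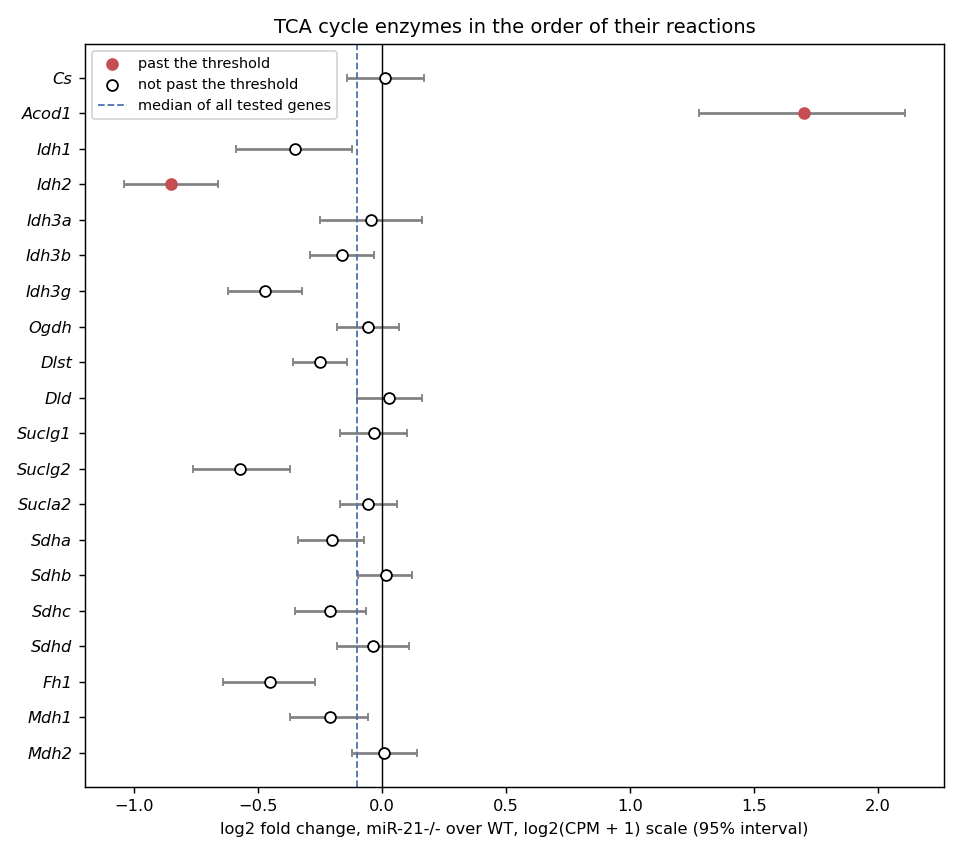
Log2 fold change between genotypes, from log2(CPM + 1) (horizontal axis, miR-21-/- relative to WT, with 95% intervals), for the 9 genes and the 11 other TCA enzymes in the order of their reactions. Filled points are past the threshold and the dashed line is the median of all tested genes (-0.10). Acod1 stands at 1.70 and Idh2 at -0.85, and the other 18 genes lie between -0.57 and 0.03.

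Over the 20 enzymes, 15 had a log2 fold change below 0 and 5 above, and 8 did not overlap between the groups, beside 66.8% below 0 and 35.7% without overlap over all tested genes. With rescaling by the median of ratios 10 were below 0 and 10 above, so the sign of the small differences depended on the scaling. Acod1 (1.81) and Idh2 (-0.74) remained past the threshold under that scaling.

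Genes that bring pyruvate into the cycle showed no call: 0 of 13 tested genes of 14 passed the threshold (Pdk4 was too low), 2 were within the adjusted p limit, both lower (9.99% of all tested genes were), and 5 had an unadjusted p under 0.05 (limma), beside the same 47.1% of all tested genes. Both of these were above the adjusted p limit in 12 of 17 alternative fits (0.0110 for Pdpr by the median of ratios, limma). They ranged from Pdpr, a regulator of pyruvate dehydrogenase phosphatase (-0.42, adjusted p = 0.00346 by limma), to Mpc1, a subunit of the mitochondrial pyruvate carrier (0.22, adjusted p = 0.0569). Among 17 genes that exchange carbon between the cycle and the cytosol, 1 passed the threshold, beside 7.24% of all tested genes. An unadjusted limma p under 0.05 was found for 11 of the 17, beside 47.1% of all tested genes. Ass1, argininosuccinate synthase, which consumes aspartate, was at 12.3, 5.77, 8.61 and 10.0 CPM in WT and 40.9, 41.5, 27.8 and 40.2 CPM in miR-21-/- TAMs. Every miR-21-/- value was above the WT values, by 3.86-fold (95% interval 2.85 to 5.23), a log2 fold change of 1.95 (adjusted p = 1.11e-04 by limma). The median of this list was -0.17, and its lowest gene was Aco1, which also serves as an iron-regulated RNA-binding protein (-0.39, adjusted p = 0.00145). Among 5 genes of itaconate breakdown, 0 passed and 1 had an unadjusted limma p under 0.05 (again beside 7.24% and 47.1%), from Suclg2, which also belongs to the cycle (-0.57), to Clybl, which cleaves citramalyl-CoA (0.06).

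Genes upstream of Acod1 moved in both directions: 2 of 12 passed the threshold as higher and 1 as lower, beside 2.97% and 4.27% of all tested genes, and their median log2 fold change was -0.04. At an unadjusted p under 0.05 (limma), 7 of the 12 passed, beside 47.1% of all tested genes. Irf1, an interferon-induced transcription factor, was at 111, 103, 126 and 144 CPM in WT and 447, 376, 327 and 353 CPM in miR-21-/- TAMs (log2 fold change 1.63, adjusted p = 1.67e-05 by limma). Its groups did not overlap, and neither did those of Tlr4, the receptor for lipopolysaccharide, at 88.0 to 104 and 137 to 160 CPM (0.66, adjusted p = 1.17e-04). Ifngr1, the ligand-binding chain of the interferon-γ receptor, went the other way, from 233 to 294 CPM in WT to 138 to 164 CPM in miR-21-/- TAMs (-0.72, adjusted p = 1.97e-04).

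Of 15 genes of the response to itaconate, 13 were tested (Nqo1 and Sucnr1 were too low). Of these, 4 passed the threshold, each as higher, beside 2.97% of all tested genes called as higher. An unadjusted limma p under 0.05 was found for 8 of the 13, beside 47.1% of all tested genes. The median of the 13 log2 fold changes was 0.46. Slc7a11, the cystine-glutamate antiporter, was at 68.8, 53.1, 49.2 and 43.4 CPM in WT and 173, 187, 128 and 144 CPM in miR-21-/- TAMs (log2 fold change 1.55, adjusted p = 7.94e-05 by limma). Hif1a, the transcription factor stabilized by succinate, was at 276, 208, 236 and 193 CPM in WT and 561, 436, 445 and 425 CPM in miR-21-/- TAMs (1.03, adjusted p = 2.53e-04). Neither gene overlapped between the groups. The redox enzymes Srxn1, sulfiredoxin (0.77, adjusted p = 0.00131), and Txnrd1, thioredoxin reductase (0.65, adjusted p = 5.93e-04), were the other calls, and Srxn1 lost its call with no filter on low values (adjusted p = 0.00743). Atf3, induced by electrophilic stress, was the lowest of the list (-0.30, adjusted p = 0.141). Hmox1, heme oxygenase, was named after its values were seen: it was at 510 to 718 CPM in WT and at 957, 1996, 855 and 1410 CPM in miR-21-/- TAMs, without overlap, and its log2 fold change of 0.98 (adjusted p = 0.00995) missed the limit. The list mixes genes tied to itaconate in different ways (Hif1a by way of succinate), so its count and median do not measure an itaconate response. Its genes also respond to other signals, and no metabolite was measured.

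**Figure D4:**
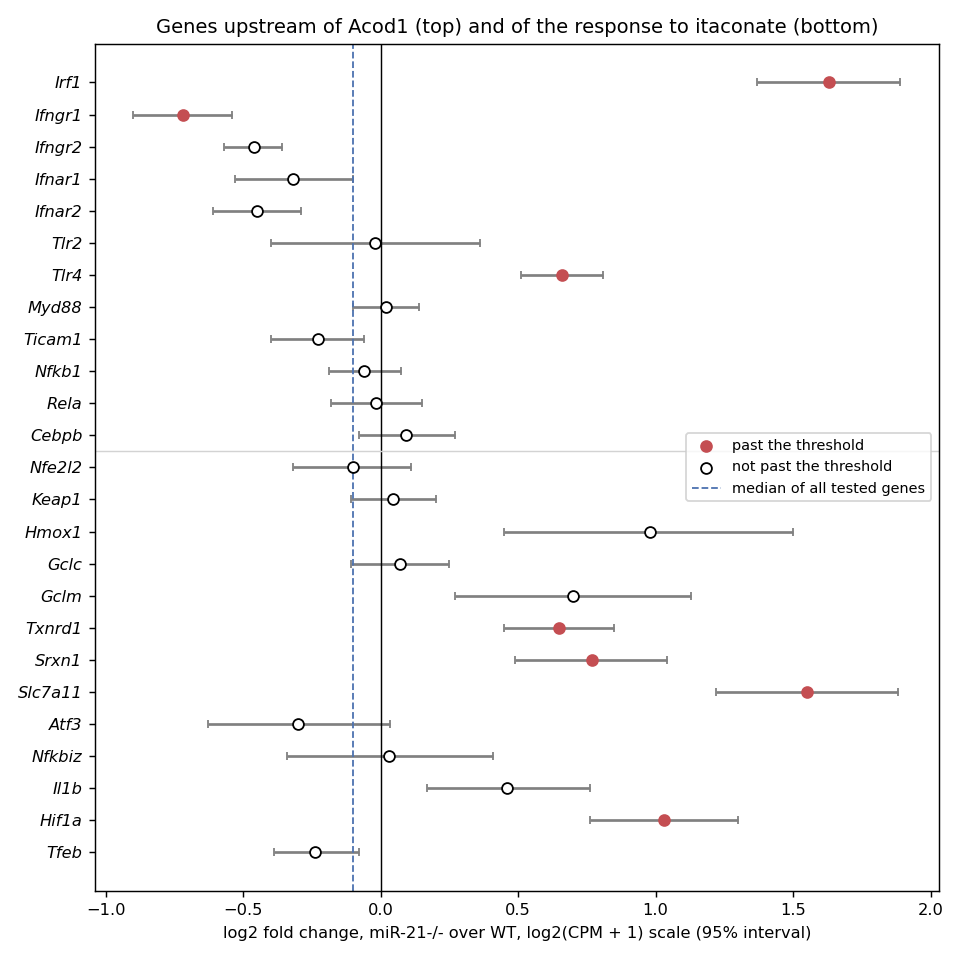
Log2 fold change between genotypes, from log2(CPM + 1) (horizontal axis, miR-21-/- relative to WT, with 95% intervals), for genes upstream of Acod1 (above the grey line) and genes of the response to itaconate (below it). Filled points are past the threshold. Irf1 (1.63), Tlr4 (0.66), Slc7a11 (1.55), Hif1a (1.03), Srxn1 (0.77) and Txnrd1 (0.65) are filled on the higher side and Ifngr1 (-0.72) on the lower side.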

How the data were processed

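TAMs of WT and miR-21-/- mice, 4 libraries each, were profiled by mRNA sequencing. Per the submitters' processing notes, reads were aligned with STAR and quantified in Partek 7.0 against mm10; the counting rule and strand setting are not given in the sources used here. The authors deposited normalized values, with a floor of 0.0001, for 53247 genes, and these were treated here as CPM (counts scaled to library size). The exact normalization is not given in the sources used here, and each library's listed values sum to 788099 to 807758. Whole reads were not recovered (78.6 to 79.8% of low values were whole multiples of 1 read within 0.1), so no count test was run. From these values, log2(CPM + 1) was fitted, for 13363 genes averaging 1 CPM or more, with limma 3.58.1 (R 4.3.3; lmFit, eBayes with trend), with Benjamini-Hochberg adjustment; the threshold was an adjusted p of at most 0.005 and a fold over 1.5. Fold changes on this scale understate low genes. The labels name biological replicates; if mice were pooled, p-values measure the spread between samples. Annotation was GENCODE vM21. A few planned items are not reported here. The test was checked on simulated data. The genes and lists were chosen with earlier results of these data known. Named were all 9 genes, the 11 other TCA enzymes, from each other list the calls (at most 6) and the highest and lowest gene, and 5 genes most like Acod1. Hmox1, Kmo, Nop56 and the cell markers named stand outside this rule and were named after their values were seen. Alternatives changed the pseudocount, filter, scaling, variance model, weights, replicate block, threshold and samples.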

Additional observations from a re-analysis of the deposited data

Results flagged for a closer look

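Of 66 groups of 4 libraries, 5 had a library far from the other 3, where chance alone gives about 1 in 20 such groups. A group was 1 genotype for a TCA gene, for a gene past the threshold on another pathway list, or for a gene-pair ratio. Other named genes were not screened. Mdh2 was at 102 CPM in miR-21-/- replicate 2, with the others at 92.7 to 93.2 CPM. Sdha was at 164 CPM in WT replicate 3, beside 152 to 153 CPM. Ass1 was at 27.8 CPM in miR-21-/- replicate 3, beside 40.2 to 41.5 CPM, and that value was still above each WT value. Srxn1 was at 22.4 CPM in WT replicate 4, beside 28.1 to 28.4 CPM. Hif1a was at 561 CPM in miR-21-/- replicate 1, beside 425 to 445 CPM.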

How the results depend on the processing

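Acod1 (log2 fold change 1.53 to 1.82, adjusted p 1.11e-04 to 0.00186) and Idh2 (-0.92 to -0.70, adjusted p 3.17e-05 to 0.00104) passed the threshold in 17 of 17 alternative limma fits. Of the 9 genes 2 passed in each of these, and 3 with no fold limit. The added gene, Fh1, was over the adjusted p limit in 11 of the 17 fits, Dlst in 11, and Pdpr in 12. The count of all genes past the threshold, 967, was 453 with a pseudocount of 10, 547 with no filter on low values, 1974 with no fold limit and 671 to 975 when 1 library was left out. Differences near 0 changed sign: Cs over -0.023 to 0.069, Idh3a over -0.10 to 0.035, Mdh2 over -0.030 to 0.048 and the Idh3a to Ogdh ratio over -0.051 to 0.077 when 1 library was left out, Idh3a to 0.066 and Ogdh to 0.056 by the median of ratios, and Idh3a to 0.038 by quantile normalization. The Mdh1 to Mdh2 ratio lost its overlap, over -0.27 to -0.19, when WT replicate 1 (-0.25) or miR-21-/- replicate 4 (-0.27) was left out. Suclg2 passed with a pseudocount of 0.1, so that 1 gene of the other TCA enzymes and 1 of itaconate breakdown passed, and without WT replicate 1, WT replicate 2, miR-21-/- replicate 3 or miR-21-/- replicate 4, so that both counts ran from 0 to 1 over the left-out libraries. Sdhaf1 passed without WT replicate 1, giving 0 to 1 assembly factors. With no fold limit the counts were 3 for other TCA enzymes, 2 for pyruvate entry, 4 for carbon exchange, 5 (from 3) for genes upstream of Acod1 and 1 for itaconate breakdown, which follows from the limit itself. For the other changes the cause was not tested. The replicate numbers used here are shared between genotypes. The titles number the miR-21-/- libraries otherwise (miRKO1-2, miRKO3, miRKO4 and miRKoX for replicates 1 to 4), and pairs by title were not tested. Deviations of same-numbered libraries correlated at 0.086, -0.112, -0.148 and 0.228, and not every library correlated best with its own number. Same-numbered libraries were therefore not treated as pairs. With the replicate block 907 genes passed, 827 of them among the 967, and the count of the 9 genes stayed at 2. Count tests by edgeR and DESeq2 were not run because whole reads were not recovered, and no symbol had more than 1 row to sum. At this depth Pdk4 and Sucnr1 had 0 to 2 reads a library, and Nqo1 (15 to 34 reads) was left out by the filter. The 37 genes of the mitochondrial genome were at the floor in all libraries, so a value at the floor need not mean low expression.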
